A study of Mus musculus with 17 samples.

Results

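The S100 family consists of small EF-hand proteins that bind calcium. The genes described here are the 8 members S100a1, S100a4, S100a6, S100a8, S100a9, S100a10, S100a11 and S100a13, out of 47069 genes listed. They were chosen by name, and the family was picked because S100a6 was higher in Gata1s cells both with a hairpin against Arid3a and with miR-125b. The level of S100a6 in those comparisons is therefore given as a description, with no test. The files list 17 S100 genes, so 9 stayed outside the choice, and they are described by their counts.

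RNA was sequenced from mouse fetal liver cells at E12.5 to E13.5 (embryonic days), from a B6J.129(Cg) strain that carries Cas9 and EGFP, driven by the CAG promoter, at the Gt(ROSA)26Sor locus. In 14 of the 17 libraries the cells carried sgGata1, a guide RNA against Gata1, and are named Gata1s after the short form of this blood transcription factor. The controls of these comparisons therefore carry the Gata1 guide too. A second transgene set the group: LUC (luciferase, n = 3) and Arid3a (n = 3) received doxycycline at 1 µg/mL for 48 h, while sh-ctrl (a control hairpin, n = 3), shArid3a (a hairpin against Arid3a, n = 2, replicates 1 and 3) and miR-125b (n = 3) received it at 1 µg/mL for 10 days. The WT group (n = 3) carried sgLuc and shLuc, a guide and a hairpin against luciferase, and no doxycycline is listed for it. The promoters of the transgenes, any sorting of the cells and whether replicates came from separate embryos are not given in the sources used here, so p-values measure only the spread between these libraries.

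Most S100 proteins work as dimers that change shape when calcium binds and then grip a partner protein. S100A10 is the exception, since its calcium loops are altered and it stays in the active shape, bound to annexin A2. In blood, S100A8 and S100A9 pair into calprotectin, an abundant cytosolic protein of neutrophils and monocytes that binds zinc and manganese and signals through the receptors TLR4 and RAGE (gene Ager). S100A6 binds annexins and the calcyclin-binding protein Cacybp, S100A4 binds non-muscle myosin heavy chain (Myh9), S100A11 binds annexin A1, S100A1 is best known from heart muscle, and S100A13 takes part in unconventional secretion of fibroblast growth factor 1.

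Library totals were 31339238 to 38678649 counts for LUC and Arid3a, 31992089 to 40859301 for the 10-day table (sh-ctrl, shArid3a and miR-125b) and 16362439 to 19212193 for WT. Levels are CPM (counts scaled to a common library size), with TMM scaling over all 17 libraries, given with the standard deviation (SD) between libraries. The level of Arid3a was 58.2 ± 7.59 CPM in sh-ctrl (SD, n = 3) and 21.9 ± 0.674 in shArid3a (SD, n = 2), lower by a log2 fold change of −1.43 with an edgeR adjusted p-value of 0.0368 (over 0.05 in 7 of 16 alternatives), while the miR-125b libraries held 9.98 ± 1.73 CPM of it (SD, n = 3; log2 fold change −2.56, edgeR adjusted p-value 0.000282). In the libraries labelled Arid3a the Arid3a gene was at 65.4 ± 10.9 CPM against 61.7 ± 2.61 in LUC (SD, n = 3 each; log2 fold change 0.08, edgeR adjusted p-value 0.737). These libraries showed no rise of their labelled gene beyond the spread, so they are called the libraries labelled Arid3a throughout. Summed megakaryocyte markers (9 genes, all with counts in each group) were at 2865 to 5235 CPM in the Gata1s libraries and 1265 to 1458 in WT. Summed neutrophil markers (10 genes) were at 8540 to 10789 CPM in WT and 5.18 to 164 in the Gata1s libraries. Erythroid markers summed to 46.4 to 181 CPM and liver and stroma markers to 13.8 to 144 CPM over all 17 libraries. LUC replicate 3 stood apart from the other LUC libraries in neutrophil genes, and results that rest on it are given without it too.

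All 8 genes lie on chromosome 3 (GRCm38, GENCODE M21) and are protein-coding. S100a1 (ENSMUSG00000044080, chr3:90511034-90514392, minus strand) and S100a13 (ENSMUSG00000042312, chr3:90514435-90524581, plus strand) are arranged head to head. S100a4 (ENSMUSG00000001020, chr3:90603771-90606045, plus strand) and S100a6 (ENSMUSG00000001025, chr3:90612882-90624181, plus strand) follow within 20.4 kb, with S100a5 between them. S100a8 (ENSMUSG00000056054, chr3:90668978-90670035, plus strand) and S100a9 (ENSMUSG00000056071, chr3:90692632-90695721, minus strand) are 22.6 kb apart. S100a11 (ENSMUSG00000027907, chr3:93520488-93526287, plus strand) and S100a10 (ENSMUSG00000041959, chr3:93555080-93564643, plus strand) form a separate pair 2825 kb further along. Of the 8, S100a4 is the only gene whose exons overlap another gene: it shares 302 of its 584 exonic bases with Gm42674 on the same strand. Gm42674 had 0 counts in every library, and counting rules that drop reads shared by overlapping genes could lower the S100a4 counts, so its level is uncertain.

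The upstream sequences of 3 genes with a wide range between groups, and the stretch between the head-to-head pair, are shown because these genes are compared with their neighbours below. They are from RefSeq (GRCm38.p6), 5′ to 3′ on the strand of the gene. For S100a4 and S100a6 they are the 250 bases before the RefSeq start, and for S100a9 they run 6 bases further. Capitals mark TATAAA in S100a4 and S100a9, ATTAAA and the reverse complement of CCAAT in S100a6, and TTGCTTAA (a match to TTGCNNAA, letters bound by C/EBP factors) and GATAA (letters bound by GATA factors) in S100a9. Positions are chr3:90603520-90603769 for S100a4, chr3:90612644-90612893 for S100a6, chr3:90695716-90695971 for S100a9 (minus strand) and chr3:90514393-90514434 for the 42 bases between the annotated starts of S100a1 and S100a13.

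S100a4: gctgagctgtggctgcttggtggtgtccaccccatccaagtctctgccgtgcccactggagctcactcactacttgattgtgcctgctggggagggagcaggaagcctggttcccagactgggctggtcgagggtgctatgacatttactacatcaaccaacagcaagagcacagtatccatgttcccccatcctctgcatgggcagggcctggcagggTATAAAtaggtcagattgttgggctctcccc

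S100a6: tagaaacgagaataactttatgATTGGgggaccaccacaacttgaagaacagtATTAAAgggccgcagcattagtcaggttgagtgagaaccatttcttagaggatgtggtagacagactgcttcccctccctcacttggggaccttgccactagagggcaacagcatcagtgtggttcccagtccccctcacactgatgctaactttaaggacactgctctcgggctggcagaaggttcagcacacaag

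S100a9: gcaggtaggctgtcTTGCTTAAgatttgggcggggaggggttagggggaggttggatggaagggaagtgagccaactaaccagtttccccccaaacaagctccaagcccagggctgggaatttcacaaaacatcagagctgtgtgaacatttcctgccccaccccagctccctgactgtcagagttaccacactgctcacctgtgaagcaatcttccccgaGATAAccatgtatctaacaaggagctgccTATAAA

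Between S100a1 and S100a13 (plus strand): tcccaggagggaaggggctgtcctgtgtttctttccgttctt

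A window from 250 bases before to 50 after the RefSeq start was found for 7 of the 8 genes. Motifs were searched on both strands in these windows and in all 32851 windows of the table, and a match is only a description of the letters. TATAAA was in 3 of the 7 windows (S100a4, S100a8, S100a9) and in 13.6% of all windows. It began 31 bases before the start of S100a4, 30 before that of S100a8, and at the RefSeq start itself in S100a9. By the GENCODE annotation S100a8 starts further upstream, so that its TATAAA lies inside the annotated first exon. ATTAAA, an AT-rich run, was found in the S100a6 window alone, 197 bases before the start, and in 13.9% of all windows. TTGCNNAA was in the S100a9 window alone (10.8% of all windows), GATAA in those of S100a9 and S100a11 (25.4%), and CCAAT in that of S100a6 (37.4%). The windows of S100a1 and S100a13 share 204 bases and held none of the 5 motifs. Their GC content was 61.0% and 59.3%, and that of S100a11 61.7%, against 49.3% for S100a6, 51.3% for S100a9, 55.3% for S100a4 and a median of 52.7% over all windows.

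The mature miR-125b-5p, with its seed in capitals, is shown because miR-125b is one of the transgenes.

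miR-125b-5p: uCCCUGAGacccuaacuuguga

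Sites for this seed (CTCAGGGA as an 8mer, CTCAGGG and TCAGGGA as 7mers) were searched in the annotated 3′ untranslated regions. None of the 8 genes held a match. Their longest annotated regions were 68 to 294 bases, against a median of 965 over 20748 genes, of which 20.6% held a match.

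**Figure D1:**
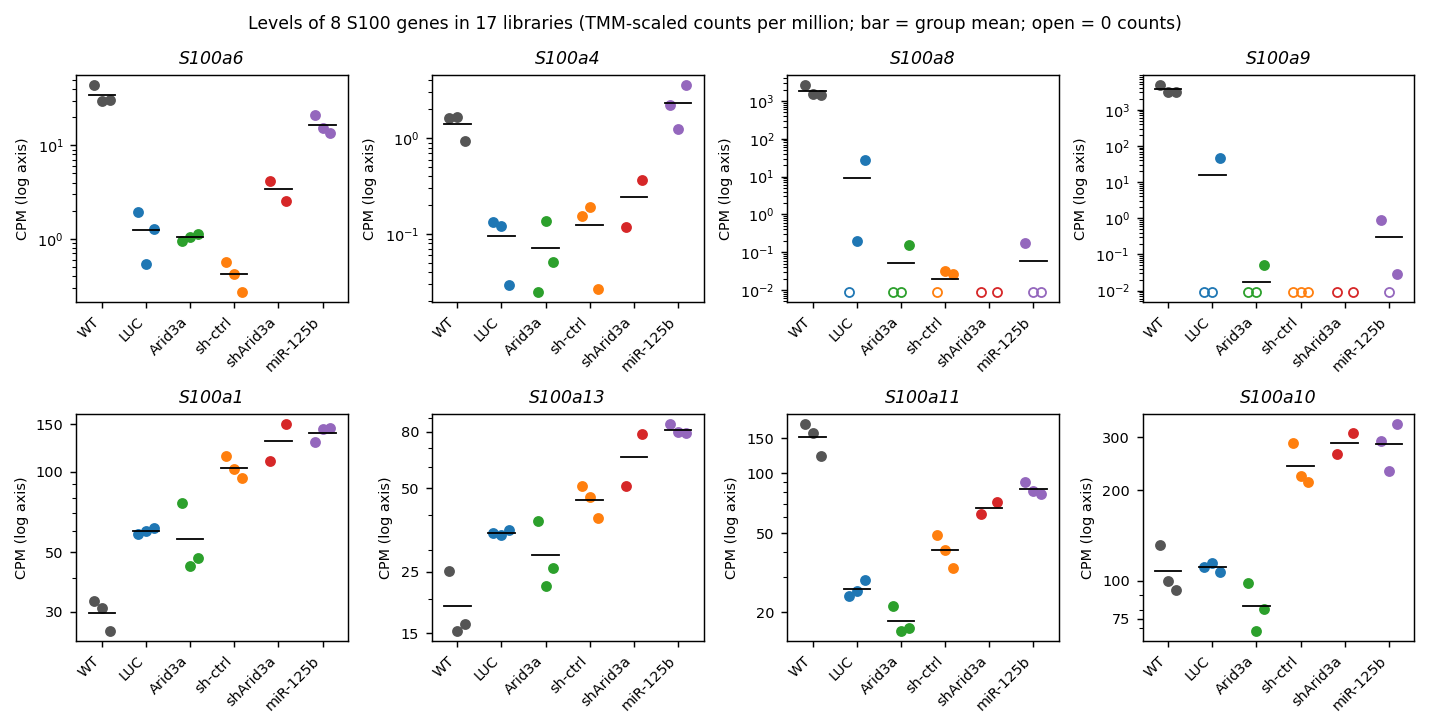
Levels of the 8 S100 genes in CPM on log axes, 1 panel per gene, with points for libraries, bars for group means and open points for libraries with 0 counts. S100a8 and S100a9 are at 1440 CPM or more in WT and at 47.5 CPM or less elsewhere, while S100a6 is lowest in sh-ctrl and higher in shArid3a, miR-125b and WT.

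S100a6 spanned a 39.8-fold range of group means in the 10-day table, from sh-ctrl to miR-125b. Its counts were 18, 13 and 10 in the sh-ctrl libraries, 140 and 77 in shArid3a, and 587, 501 and 483 in miR-125b. As levels these were 0.558, 0.417 and 0.271 CPM in sh-ctrl, 4.17 and 2.57 CPM in shArid3a, and 20.9, 15.2 and 13.5 CPM in miR-125b. The 3 groups did not overlap. The fitted log2 fold change was 3.01 (SE 0.39) for shArid3a against sh-ctrl and 5.29 (SE 0.39) for miR-125b against sh-ctrl, and these comparisons share the sh-ctrl libraries. For miR-125b against shArid3a it was 2.29 (SE 0.38), also a description. With 10 to 18 counts, the sh-ctrl level is the least precise of the 3.

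Among the other groups S100a6 was highest in WT, with 797, 620 and 662 counts, or 34.9 ± 8.23 CPM (SD, n = 3). LUC held 72, 22 and 43 counts (1.25 ± 0.705 CPM, SD, n = 3) and the libraries labelled Arid3a 38, 38 and 44 (1.04 ± 0.091 CPM, SD, n = 3). From highest to lowest the groups were WT, miR-125b, shArid3a, LUC, the libraries labelled Arid3a and sh-ctrl, and LUC and the libraries labelled Arid3a were the only neighbours in this order whose ranges overlapped. WT was above miR-125b in every library, by 2.11-fold in the means. Between WT and the other groups the genotype, doxycycline, second transgene and table change together and cannot be told apart.

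S100a4 followed S100a6 in being highest with miR-125b among Gata1s groups, at a far lower level. Its counts were 62, 41 and 129 with miR-125b, 4 and 11 with shArid3a, and 5, 6 and 1 in sh-ctrl. Levels were 2.35 ± 1.18 CPM with miR-125b (SD, n = 3), 0.243 ± 0.175 with shArid3a (SD, n = 2) and 0.125 ± 0.0867 in sh-ctrl (SD, n = 3). The miR-125b libraries were above all others of the table, while shArid3a and sh-ctrl overlapped. WT was at 1.40 ± 0.411 CPM (SD, n = 3) with 20 to 35 counts, and LUC and the libraries labelled Arid3a held 1 to 5 counts each. The fitted log2 fold change was 4.21 (SE 0.76) for miR-125b against sh-ctrl and 0.93 (SE 0.85) for shArid3a against sh-ctrl, which turned to −0.0301 without shArid3a replicate 3.

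S100a5, the gene between S100a4 and S100a6 and not among the 8, had 10, 31 and 26 counts with miR-125b. It had 2, 1 and 0 in sh-ctrl, 1 in each shArid3a library, 4, 7 and 1 in WT, 0 in all LUC libraries and 0, 0 and 7 in the libraries labelled Arid3a. The 3 adjacent genes S100a4, S100a5 and S100a6 were thus each higher in all miR-125b libraries than in any sh-ctrl or shArid3a library. This was not particular to them, since S100a11 and S100a13, which are not next to them, were separated in the same way. Of all genes tested, 22.9% were higher in every miR-125b library than in sh-ctrl, and 13.9% than in shArid3a. Of the other 8 S100 genes outside the choice, none exceeded 13 counts in any library, and S100a16 and S100z had 0 counts in all 17. S100a7a, which lies between S100a6 and S100a8, had 13, 7 and 5 counts in WT and 4 in all other libraries together. S100a14 had at most 6 counts, S100g 6, S100a2 4, S100a3 2 and S100b 2. The pseudogene S100a11-ps had 0 counts in every library.

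Markers of other blood cells differed beside S100a6 and S100a4. The neutrophil and progenitor granule gene Mpo was at 69.6, 29.5 and 40.1 CPM with miR-125b, at 0.179 and 0.200 CPM in shArid3a, and at 0.620, 0.0321 and 0 CPM in sh-ctrl. The sum of all 10 neutrophil markers was 87.9 to 164 CPM with miR-125b, 36.5 to 72.2 in shArid3a and 51.1 to 108 in sh-ctrl, where most of it was Prtn3. Ly6g was at 0 in all 3 groups. The 9 monocyte and macrophage markers summed to 19.8 to 30.4 CPM with miR-125b, 7.76 to 11.4 in shArid3a and 10.9 to 25.5 in sh-ctrl, with C1qb at 0 in all 3 groups. The 8 mast cell and basophil markers, none of them at 0 in any of these groups, summed to 33.8 to 433 CPM with miR-125b, up to 102 in shArid3a and 7.12 to 97.9 in sh-ctrl. These 3 sums overlapped between miR-125b and sh-ctrl. Liver and stroma markers summed to 54.7, 107 and 144 CPM with miR-125b, 24.6 and 33.6 in shArid3a, and 34.4, 43.0 and 70.8 in sh-ctrl. Ttr and Cdh5 were at 0 in all 3 groups, and Alb at 0 with miR-125b and in shArid3a. Pdgfrb was at 49.6 to 67.3 CPM with miR-125b, 23.9 and 24.2 in shArid3a, and 33.4 to 55.5 in sh-ctrl. The collagen gene Col1a2 was at 1.07, 36.2 and 75.7 CPM with miR-125b, 0.209 and 6.80 in shArid3a, and 0.0310, 3.18 and 14.3 in sh-ctrl. The sum, Pdgfrb and Col1a2 each overlapped between miR-125b and sh-ctrl. The megakaryocyte integrin gene Itgb3 was at 78.2, 145 and 186 CPM with miR-125b and 149 and 181 in shArid3a, below the 427 to 447 CPM of sh-ctrl. Whether such cells carry the S100a6 and S100a4 reads was not tested. In bulk libraries, fewer cells of a type and less RNA per cell cannot be told apart.

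The calprotectin genes S100a8 and S100a9 set the WT group apart. S100a8 had 47788, 32474 and 30990 counts in the WT libraries, or 1881 ± 675 CPM (SD, n = 3), and S100a9 had 87488, 66005 and 65811, or 3688 ± 1021 CPM (SD, n = 3). Together they made up 0.619 ± 0.181% of all WT counts (SD, n = 3). Per kilobase of exon, S100a9 was at 7065 CPM per kb and S100a8 at 2710, which ranked 2nd and 6th among all genes in the mean of the WT libraries. The ratio of S100a9 to S100a8 per length was 2.65 ± 0.199 in WT (SD, n = 3).

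In the Gata1s libraries these genes were at or near 0, with LUC replicate 3 as the exception. That library had 914 counts of S100a8 and 1611 of S100a9 (26.9 and 47.5 CPM). LUC replicate 1 had 0 of both, and LUC replicate 2 had 8 and 0. The libraries labelled Arid3a had 0, 0 and 6 counts of S100a8 and 0, 0 and 2 of S100a9. In sh-ctrl they were 0, 1 and 1, and 0 in all 3. Both shArid3a libraries had 0 of each gene, and miR-125b had 5, 0 and 0 counts of S100a8 and 25, 0 and 1 of S100a9. Against the upper limit that 0 counts allow (3 counts over the group, counting error only), S100a9 was at least 123316-fold higher in WT than in sh-ctrl and at least 78162-fold higher than in shArid3a, and S100a8 at least 39864-fold higher in WT than in shArid3a.

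The LUC mean rests on replicate 3. With it, S100a8 was at 9.04 ± 15.5 CPM and S100a9 at 15.8 ± 27.4 (SD, n = 3), and without it S100a8 was at 0.0971 CPM in the mean of the other libraries and S100a9 at 0. The count ratio of S100a9 to S100a8 in LUC replicate 3 was 1.76 (exact 95% interval 1.62 to 1.91), beside 1.83, 2.03 and 2.12 in WT. Other neutrophil genes were raised in the same library: Ltf was at 20.8 CPM, Ngp at 27.6 and Lcn2 at 9.78, each at 0.0243 CPM or less in LUC replicates 1 and 2. As a share of the WT mean, LUC replicate 3 held 1.43% for S100a8, 1.29% for S100a9, 1.16% for Ltf, 1.93% for Ngp and 2.08% for Lcn2, but 0.348% for Elane and 0.221% for Mpo. The 10 neutrophil markers summed to 83.9 CPM in that library and to 5.18 and 5.66 in the other LUC libraries, with Ly6g at 0 in all 3. The monocyte and macrophage markers summed to 50.5 CPM in LUC replicate 3 and to 10.7 and 10.2 in replicates 1 and 2. Their part in the S100a8 and S100a9 counts was not tested.

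**Figure D2:**
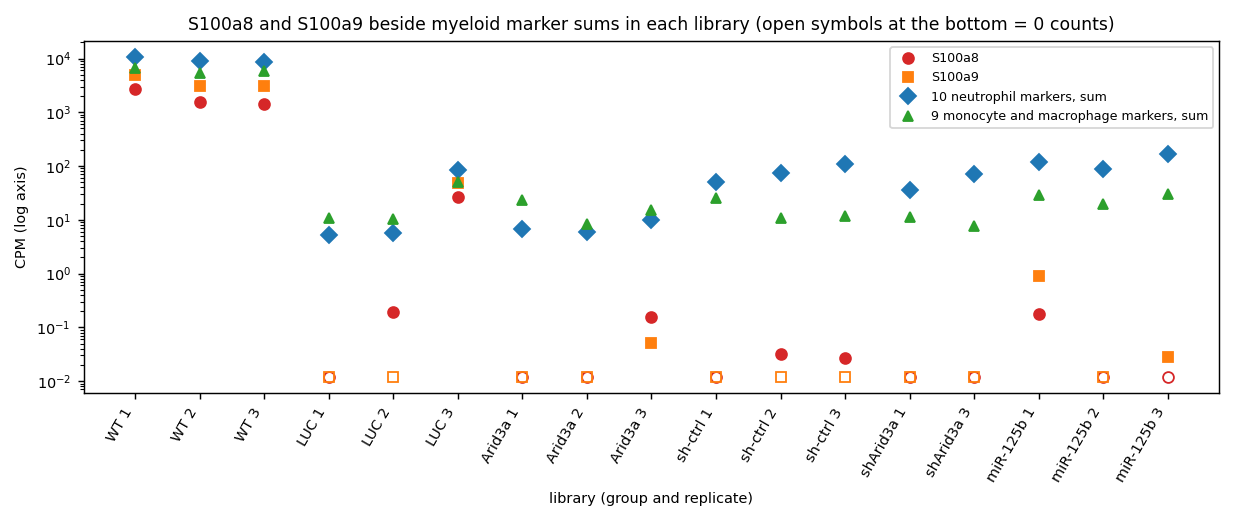
S100a8, S100a9 and the summed neutrophil and monocyte and macrophage markers in each of the 17 libraries, in CPM on a log axis, with open symbols for 0 counts. All 4 are highest in WT, and LUC replicate 3 stands above the other LUC libraries for all 4.

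In the 10-day table the neutrophil markers summed to 36.5 to 164 CPM, of which Prtn3 alone made up 36.2 to 115, and both calprotectin genes were at 0.892 CPM or less. The library of that table with the most S100a8 and S100a9, miR-125b replicate 1, also had its highest Mpo (69.6 CPM), Elane (2.25), Lcn2 (0.571), Ngp (0.464) and Cebpe (0.357). The highest of these libraries for the marker sum, miR-125b replicate 3, had 0 counts of S100a8 and 1 of S100a9. Prtn3 and Ctsg were highest in that library, at 115 and 7.95 CPM against 42.7 and 4.99 in miR-125b replicate 1. Camp (4 counts) and Ltf (2 counts) were highest there too. Mast cell and basophil markers summed to 433 CPM in miR-125b replicate 1, against 39.5 and 33.8 in replicates 2 and 3. In WT the monocyte and macrophage markers were at 5483 to 6752 CPM and mast cell and basophil markers at 1254 to 1490. The division of S100a8 and S100a9 reads among these cells was not tested.

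S100a1 and S100a13, the head-to-head pair, were highest with miR-125b and lowest in WT. S100a1 was at 32.9, 31.0 and 25.5 CPM in WT, at 58.7, 60.2 and 61.6 in LUC, and at 76.6, 44.5 and 47.8 in the libraries labelled Arid3a. In the 10-day table it was at 114, 102 and 94.4 CPM in sh-ctrl, 110 and 150 in shArid3a, and 129, 144 and 145 with miR-125b. No Gata1s library reached down to the WT range. S100a13 was at 25.1, 15.3 and 16.2 CPM in WT, 34.6, 34.0 and 35.4 in LUC, and 38.1, 22.2 and 25.7 in the libraries labelled Arid3a. In the 10-day table its levels were 51.0, 46.6 and 39.2 CPM in sh-ctrl, 50.9 and 78.7 in shArid3a, and 85.4, 80.1 and 79.3 with miR-125b. For both genes the order was miR-125b, shArid3a, sh-ctrl, LUC, the libraries labelled Arid3a and WT, and shArid3a overlapped sh-ctrl, as LUC did the libraries labelled Arid3a. For S100a1 the ranges of miR-125b and shArid3a overlapped as well, and for S100a13 those of WT and the libraries labelled Arid3a.

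The log2 levels of S100a1 and S100a13 had a Pearson r of 0.965 over the 17 libraries, which share their groups and tables, and of 0.830 after group means were removed. Among 8866 genes, S100a13 ranked 62nd by r with S100a1 over the libraries and 29th by the deviations, and S100a1 ranked 214th and 221st by r with S100a13. Deviations of S100a10 and S100a11 had r of 0.697 and 0.762 with S100a1, 0.779 and 0.762 with S100a13, and 0.700 with each other. The ratio of S100a1 to S100a13 counts was not fixed: it was 2.28 ± 0.116 in sh-ctrl, 1.72 ± 0.176 with miR-125b, 1.74 ± 0.0357 in LUC and 1.64 ± 0.365 in WT (SD, n = 3 each). The sh-ctrl ratios (2.19 to 2.41) lay above all miR-125b ratios (1.52 to 1.84).

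**Figure D3:**
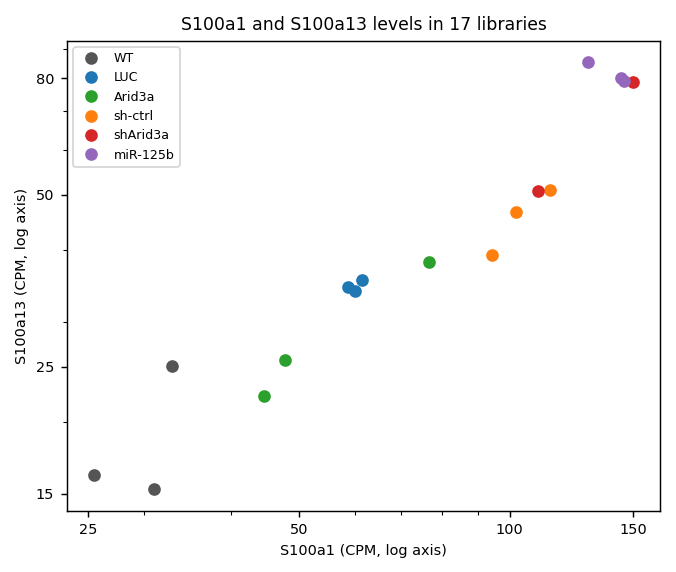
S100a1 against S100a13 in CPM on log axes, 1 point per library coloured by group. The WT libraries lie lowest for S100a1 (25.5 to 32.9 CPM) and the miR-125b libraries are at 79.3 CPM or more for S100a13.

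S100a11 and S100a10 form the annexin-binding pair. Compared per length, S100a10 was at 91.7 CPM per kb in LUC, S100a1 at 86.7, S100a11 at 51.4 and S100a13 at 48.5, while S100a6 was at 0.913. In sh-ctrl S100a10 reached 199 CPM per kb and in WT 89.3. S100a11 was at 298 CPM per kb in WT, above S100a10.

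S100a11 was at 176, 158 and 122 CPM in WT. Its levels were 24.2, 25.6 and 29.1 CPM in LUC, 21.7, 16.1 and 16.6 in the libraries labelled Arid3a, 49.2, 41.0 and 33.5 in sh-ctrl, 62.5 and 71.5 in shArid3a, and 90.6, 81.4 and 78.7 with miR-125b. No neighbouring groups overlapped in the order WT, miR-125b, shArid3a, sh-ctrl, LUC and the libraries labelled Arid3a. The fitted log2 fold change was 0.68 (SE 0.17) for shArid3a against sh-ctrl and 1.00 (SE 0.16) for miR-125b against sh-ctrl.

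S100a10 differed less between the groups of the 10-day table. Its levels were 287, 224 and 212 CPM in sh-ctrl, 264 and 310 in shArid3a, and 292, 233 and 332 with miR-125b, with all 3 groups overlapping. The log2 fold change was 0.23 (SE 0.19) for shArid3a and 0.23 (SE 0.17) for miR-125b, both against sh-ctrl. It was at 111, 115 and 107 CPM in LUC, 98.3, 68.1 and 80.5 in the libraries labelled Arid3a, and 132, 99.9 and 93.0 in WT. Every library of the 10-day table was above every other library, and the sh-ctrl mean was 2.17-fold the LUC mean. LUC and sh-ctrl differ in second transgene, doxycycline time and table, which cannot be told apart.

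**Figure D4:**
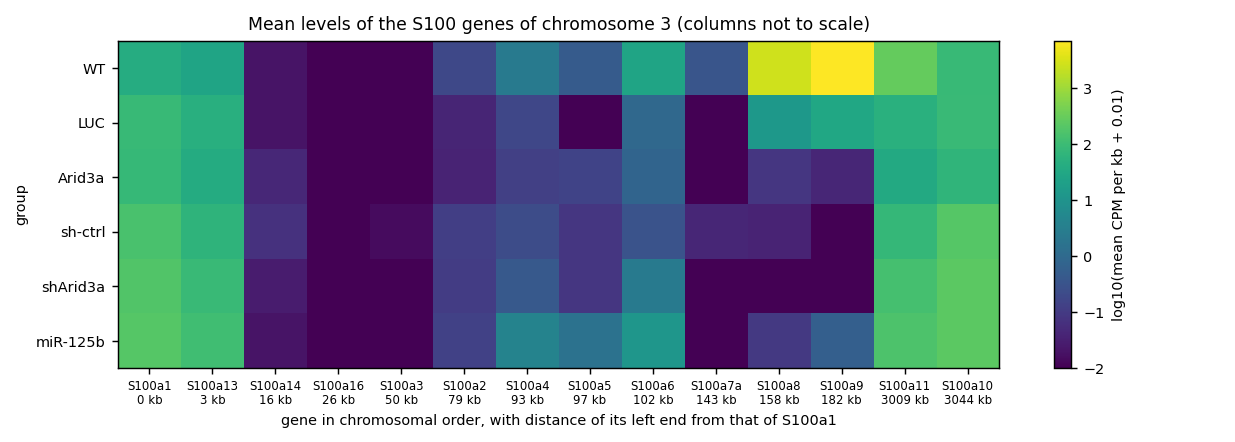
Mean level of each S100 gene of chromosome 3 in each group, as log10(CPM per kb + 0.01), in chromosomal order with the distance in kb from S100a1. S100a8 and S100a9 stand out in WT (their LUC values come from replicate 3), S100a4, S100a5 and S100a6 are higher in WT and miR-125b than in sh-ctrl, and S100a16 is at the floor in every group.

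The libraries labelled Arid3a against LUC were not used to choose the family, so the genes were tested there. Of the 8, 5 passed the filter on low counts, and S100a4, S100a8 and S100a9 did not. By edgeR's quasi-likelihood test none passed an adjusted p-value of 0.05 (0 of 5), nor did any of the 13495 genes tested (0%). Unadjusted p-values were below 0.05 for 2 of the 5, S100a11 and S100a10, and for 2885 of all genes (21.4%). S100a11 was lower in every library labelled Arid3a than in any LUC library, with a log2 fold change of −0.54 (SE 0.15, 95% interval −0.88 to −0.19, edgeR adjusted p-value 0.111). S100a10 was also lower in every library, with −0.43 (SE 0.13, interval −0.75 to −0.12, edgeR adjusted p-value 0.132). Such separation in the lower direction held for 2 of the 5 genes and for 14.7% of all genes.

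The other 3 genes overlapped between these groups. Their log2 fold changes were −0.27 for S100a13 (interval −0.73 to 0.19, edgeR adjusted p-value 0.463), −0.26 for S100a6 (−1.36 to 0.84; 0.779) and −0.10 for S100a1 (−0.57 to 0.38; 0.813). The median of the 5 was −0.27, beside 0.01 over all genes. Replicate 1 of the libraries labelled Arid3a decided the count: without it 4 of the 5 were called as lower (S100a1, S100a10, S100a11 and S100a13), together with 3198 of 13789 genes (23.2%). That library was the highest of its group for each of these 4 genes. DESeq2 called S100a10 and S100a11 as lower, and 1342 genes in all (9.94%). Leaving out LUC replicate 3 left 0 of the 5 called.

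**Figure D5:**
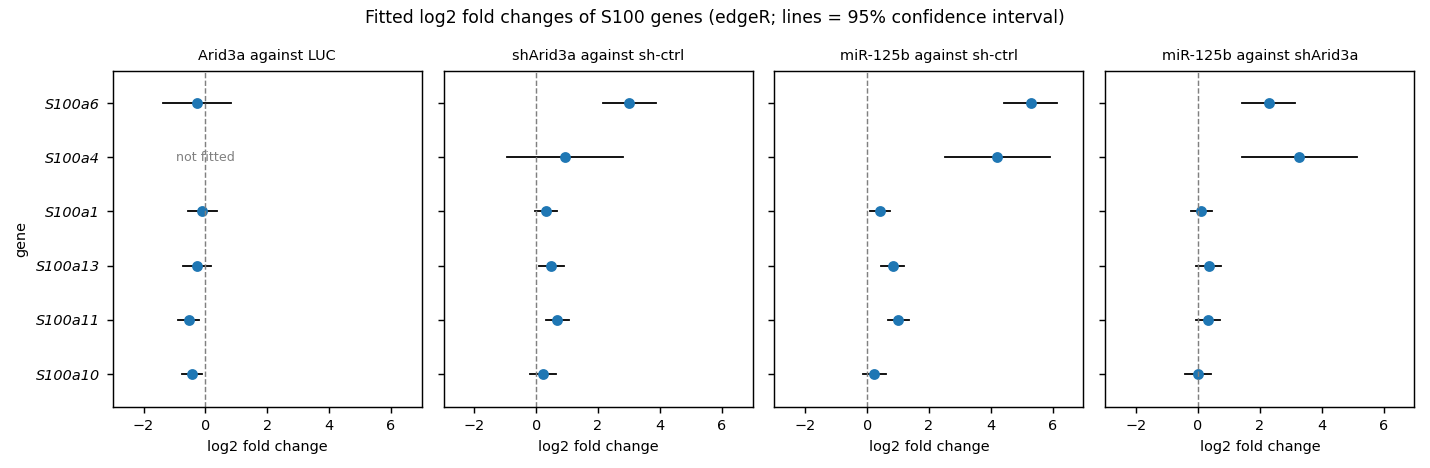
Fitted log2 fold changes (edgeR) with 95% confidence intervals for the S100 genes that passed the filter, in 4 comparisons. S100a6 and S100a4 have the largest values with miR-125b (5.29 and 4.21 against sh-ctrl), and the intervals of S100a10 and S100a11 lie below 0 for the libraries labelled Arid3a against LUC, where neither was called. S100a8 and S100a9 passed no filter.

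In the comparisons with sh-ctrl, which share these 3 control libraries, 6 of the 8 genes passed the filter. Since the choice of the family used both comparisons, the following values are descriptions. In shArid3a, S100a6 and S100a11 were higher than sh-ctrl in every library, 2 of the 6 genes, where 22.4% of all genes were. With miR-125b, S100a1, S100a4, S100a6, S100a11 and S100a13 were, 5 of the 6, where 22.9% of all genes were. The median log2 fold change of the 6 was 0.58 for shArid3a (−0.02 over all genes) and 0.91 for miR-125b (−0.03). These counts and medians include S100a6, whose rise picked the family. They also include S100a4, which passed the filter on low counts only through the miR-125b libraries. They therefore cannot set the family apart from all genes. S100a13 had 0.49 (SE 0.18) in shArid3a and 0.82 (SE 0.17) with miR-125b, and S100a1 0.31 (SE 0.16) and 0.42 (SE 0.14). With library totals in place of TMM, the median over all genes moved by −0.19 in both comparisons, and smaller values moved with it. S100a1 then had 0.11 in shArid3a and 0.23 with miR-125b, S100a13 0.29 and 0.63, and S100a10 0.0390 and 0.0376.

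Whether miR-125b and the Arid3a hairpin differed was tested directly for S100a1, S100a10, S100a11 and S100a13, in libraries that the choice of the family had used. S100a4 was higher in every miR-125b library than in either shArid3a library, with a log2 fold change of 3.28 (SE 0.85). It passed the filter on low counts only through the miR-125b libraries, so this value is a description, as is that of S100a6. None of the other 4 genes passed with edgeR (0 of 4) or was below 0.05 unadjusted (0 of 4), and DESeq2 called none of them either (0 of 4). Of all genes 1.35% passed with edgeR, 14.5% were below 0.05 unadjusted and 5.21% passed with DESeq2. S100a11 had 0.32 (interval −0.06 to 0.70, edgeR adjusted p-value 0.433) and S100a13 0.34 (−0.08 to 0.75; 0.448), both higher in every miR-125b library. S100a1 had 0.11 (−0.24 to 0.46; 0.829) and S100a10 −0.00 (−0.43 to 0.42; 0.995), with overlap. In these libraries 13.9% of all genes were higher in every miR-125b library.

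Genes for partners and receptors of S100 proteins were read from a list of 20, of which 17 were tested. With miR-125b against sh-ctrl, 7 were called as higher (among them Anxa1, Anxa2, Anxa5, Cacybp, Stip1 and Sugt1) and 1 as lower (Ager), beside 24.4% of all genes called in either direction. Their median log2 fold change was 0.48, against −0.03 over all genes. Anxa2, the partner of S100A10, rose from 32.4 ± 8.56 to 83.8 ± 24.6 CPM (SD, n = 3 each; log2 fold change 1.36, edgeR adjusted p-value 0.00867) and was called under all 16 alternatives. Anxa1, the partner of S100A11, rose from 6.94 ± 4.46 to 18.8 ± 2.30 CPM (log2 fold change 1.42, edgeR adjusted p-value 0.0249). Cacybp, which binds S100A6, rose from 204 ± 19.4 to 369 ± 62.8 CPM (log2 fold change 0.84, edgeR adjusted p-value 0.0104). Ager, which encodes the receptor RAGE, fell from 4.86 ± 2.34 to 1.60 ± 0.0862 CPM (log2 fold change −1.62, edgeR adjusted p-value 0.0172). The edgeR adjusted p-value rose above 0.05 for Anxa1 without sh-ctrl replicate 2 (0.0671) or 3 (0.0908) and without miR-125b replicate 1 (0.0561) or 3 (0.0598). For Cacybp it did so without sh-ctrl replicate 3 (0.0508). For Ager it did so without sh-ctrl replicate 1 (0.0508) or 3 (0.0501) and without miR-125b replicate 3 (0.0501). The count of 8 fell to 2 without sh-ctrl replicate 3 (5.3% of all genes), to 4 without miR-125b replicate 3 (14.6%) and to 5 without miR-125b replicate 1 (12.7%). Ahnak, a large scaffold bound by S100A10 with annexin A2, had 1.01 (edgeR adjusted p-value 0.0914, and 0.0291 with the replicate block), and Anxa11, another annexin bound by S100A6, had −0.41 (0.169).

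For shArid3a against sh-ctrl edgeR called 0 of the 17 partners, beside 0.0857% of all genes, although 8 were below 0.05 unadjusted (25.8% of all genes). DESeq2 called 5, beside 11.4% of all genes (Ahnak as lower, and Anxa2, Anxa5, Cacybp and Sugt1 as higher). Cacybp had 0.76 (edgeR adjusted p-value 0.0989) and Anxa2 0.82 (0.121) there. Ahnak had −1.21 in that comparison (edgeR adjusted p-value 0.153), Ager −0.77 (0.278), Anxa1 −0.13 (0.872) and Anxa11 0.10 (0.821). Directly between miR-125b and shArid3a no partner passed (0 of 17, and 2 by DESeq2, beside 1.35% and 5.21% of all genes), and 2 were below 0.05 unadjusted (14.5% of all genes), Ahnak with 2.21 (edgeR adjusted p-value 0.0598, and 0.0296 with the replicate block) and Anxa1 with 1.55 (0.124). Anxa2 had 0.53 (0.424), Cacybp 0.08 (0.904), Anxa11 −0.51 (0.351) and Ager −0.85 (0.377), again with edgeR adjusted p-values.

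For the libraries labelled Arid3a against LUC no partner passed (0 of 17), while 3 were below 0.05 unadjusted (21.4% of all genes), 2 were called by DESeq2 (9.94%) and 8 without replicate 1 of the libraries labelled Arid3a (23.2%). Anxa2 was at 6.94 ± 0.632 CPM there against 12.2 ± 2.64 in LUC (SD, n = 3 each; log2 fold change −0.82, edgeR adjusted p-value 0.0944), and it was lower in every library, like S100a10. Anxa11 had −0.33 (0.161), Ahnak 1.05 (0.265), Ager 0.37 (0.500), Cacybp −0.11 (0.415) and Anxa1 0.01 (0.997) in that comparison, with edgeR adjusted p-values. Tlr4 and Cybb, for a calprotectin receptor and for the catalytic subunit of the phagocyte oxidase, did not pass the filter in either table.

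Of 25 other EF-hand genes, all tested, 9 were called as higher with miR-125b against sh-ctrl (Calm3, Capn2, Cetn2, Cetn3, Cib1, Lcp1, Pdcd6, Rcn1 and Stim2) and 1 as lower (Stim1), beside 24.4% of all genes called. This count of 10 was 6 with the replicate block (26.3% of all genes), 5 by library totals (23.9%), 5 without sh-ctrl replicate 1 (17.6%), 3 without sh-ctrl replicate 3 (5.3%), and 4 without each miR-125b library in turn (12.7% to 16.0%). For shArid3a against sh-ctrl edgeR called 0 (0.0857% of all genes) and DESeq2 4 (11.4%), and 9 were below 0.05 unadjusted (25.8%). Capn2, for the large subunit of m-calpain, was the only one called between miR-125b and shArid3a, with 26.6 ± 6.89 CPM (SD, n = 3) against 3.85 ± 0.452 (SD, n = 2), a log2 fold change of 2.78 (edgeR adjusted p-value 0.00290) that passed under all 16 alternatives, and 1.35% of all genes were called there. Between the libraries labelled Arid3a and LUC edgeR called 0 (0% of all genes) and DESeq2 1 (9.94%), and 7 were below 0.05 unadjusted (21.4%). The count was 6 (23.2% of all genes) when replicate 1 of the libraries labelled Arid3a was left out. The median log2 fold changes of these 25 genes were 0.31 with miR-125b and 0.20 with shArid3a against sh-ctrl (−0.03 and −0.02 over all genes). These 2 comparisons share the sh-ctrl libraries. The median was −0.10 for the libraries labelled Arid3a against LUC (0.01 over all genes) and 0.06 for miR-125b against shArid3a (−0.01).

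Other protein-coding genes within 100 kb of the S100 genes numbered 11, of which 4 were tested, and edgeR called 0 in each of the 4 comparisons. Of all genes, it called 0% for the libraries labelled Arid3a against LUC and 0.0857% for shArid3a against sh-ctrl. The shares were 24.4% for miR-125b against sh-ctrl and 1.35% for miR-125b against shArid3a. With so few genes, 0 calls cannot set the neighbours apart from all genes. For miR-125b against sh-ctrl 1 of them was below 0.05 unadjusted (39.8% of all genes). Their median log2 fold change was 0.23 with miR-125b and 0.15 with shArid3a against sh-ctrl (−0.03 and −0.02 over all genes).

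The genes whose log2 level was most like that of S100a6 over the 17 libraries, among 8507 genes, were Cop1 (Pearson r 0.944), Rgs19 (0.942), Stx12 (0.933), Ppp2cb (0.925) and Glipr1 (0.920). Rgs19, a regulator of G protein signalling, was at 38.4 ± 6.87 CPM in sh-ctrl, 80.5 ± 8.52 with miR-125b and 89.3 ± 13.2 in WT (SD, n = 3 each). The genes most opposed were Cd244a (−0.952), Pde4a (−0.938) and Sept8 (−0.935). Cd244a, a receptor of the SLAM family, was at 74.1 ± 5.67 CPM in sh-ctrl, 32.9 ± 2.05 with miR-125b and 19.3 ± 1.69 in WT (SD, n = 3 each). Libraries share groups and tables, and after group means were removed the r values were 0.24 to 0.44 for the first 5 genes and −0.14 to −0.48 for the other 3. Among the 8 S100 genes, S100a4 and S100a11 were most like S100a6 over the libraries (r 0.871 and 0.837), with 0.03 and 0.257 after group means were removed.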

How the data were processed

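The deposited files hold raw read counts per gene in 3 tables, and per the file headers they carry no normalization by the authors. The submitters' processing notes name fastp, HISAT2 2.0.5, featureCounts and build mm10. The annotation release and the use of strand are not given in the sources used here. Tables were joined by Ensembl identifier (46880 genes shared), with positions from GENCODE M21. Replicate 2 of shArid3a was not analysed here. Groups were taken from the labels.

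Tests on the counts used R 4.3.3 and edgeR 4.0.16 (TMM, filterByExpr, glmQLFit and glmQLFTest, Benjamini-Hochberg adjustment over all genes tested, calls at 0.05), with 1 fit per table. No test was made across tables. CPM levels used TMM over 17 libraries, log2 levels a prior count of 2, and levels per kb the gene length of the WT file. Counts without molecular identifiers give intervals and limits that cover counting error only. The fits were also run on simulated data with a common spread for all genes, which cannot show how they act on libraries of unequal spread.

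The S100 genes and all lists (partners, EF-hand genes, cell type markers) were chosen with earlier results of these data known. Named genes were the S100 family, Arid3a, 8 partner genes in every comparison, the 3 list genes with the lowest adjusted p-value where called, and the 5 most and 3 least like S100a6. Genes listed because they were called were named after their values were seen, as were Mpo, Prtn3, Col1a2, Pdgfrb, Itgb3, Ltf, Ngp, Lcn2, Elane, Cebpe, Ctsg, Camp and S100a7a. Same-numbered libraries of the 10-day table deviated together (r of 0.151 to 0.431 in all 7 pairs), so the numbers may pair them. Some unlike-numbered libraries did so too, with r of 0.364 for sh-ctrl replicate 2 and shArid3a replicate 3. For sh-ctrl replicate 3 and miR-125b replicate 2 it was 0.205. The r values are not independent of each other, so the pairing is not settled. The main fits carry no block, and the fit with it is an alternative. Alternatives were DESeq2 1.42.0, other scalings, other filters, the replicate block, ribosomal RNA-like genes left out, 2 groups alone, and each library left out. For the partner and EF-hand lists and Arid3a these were added after seeing the data. One partner gene is not reported here by name.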

Additional observations from a re-analysis of the deposited data

How the results depend on the processing

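The count of S100 genes called for the libraries labelled Arid3a against LUC was 0 in edgeR, 2 with DESeq2, and 0 to 4 when single libraries were left out (4 without replicate 1 of the libraries labelled Arid3a). For miR-125b against shArid3a it was 0 in edgeR, 1 with no filter and 1 with DESeq2, both times S100a4, which passed the filter only through the miR-125b libraries. The cause was not tested. Over all genes the calls in the first comparison were 0 in edgeR, 71 with no filter, 1342 with DESeq2 and 0 to 3198 without single libraries. Between miR-125b and shArid3a they were 189, 715 with no filter, 729 with DESeq2 and 12 to 329 without single libraries. For shArid3a against sh-ctrl they were 12, 1237 with no filter, 1600 with DESeq2, 20 by library totals, 19 with 10 counts in every library, 0 without ribosomal RNA-like genes and 2 to 306 without single libraries, and for miR-125b against sh-ctrl 3414, with 734 to 3452 without single libraries. By library totals the calls with miR-125b against sh-ctrl were 890 higher and 2452 lower, in place of 1700 and 1714.

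In the paired fit with the replicate block, 0 S100 genes were called for miR-125b against shArid3a and 0 for the libraries labelled Arid3a against LUC, so the block changed no call of theirs. In the latter table same-numbered libraries had r of 0.0084 to 0.365, so the numbers are only shared, and the block left 0 genes called. Directions turned in the libraries labelled Arid3a for S100a1 (0.0505 without their replicate 2, 0.0117 without their replicate 3; −0.39 without replicate 1) and S100a6 (0.21 without LUC replicate 1, −0.63 without LUC replicate 2), for S100a4 in shArid3a against sh-ctrl (−0.0301 without shArid3a replicate 3, 1.52 without replicate 1) and for S100a1 between miR-125b and shArid3a (−0.0841 without shArid3a replicate 1, 0.32 without replicate 3). S100a10 between miR-125b and shArid3a, at −0.00325, turned to 0.00587 with the scaling of DESeq2 or DESeq2 itself, 0.00119 with no filter, 0.00179 with 10 counts in every library, 0.0802 with the replicate block, 0.00259 with 2 groups alone, 0.00491 without ribosomal RNA-like genes, and ran from −0.132 to 0.138 without single libraries. The order of groups changed with scaling for S100a8 (miR-125b and the libraries labelled Arid3a) and for S100a10 (LUC and WT, by library totals). The partner and EF-hand lists were recomputed under the same alternatives, a step chosen after seeing the data. The share of all genes called moved under them too, so the counts that follow do not describe the lists alone. Without single libraries it reached 23.2% for the libraries labelled Arid3a against LUC and fell to 5.3% for miR-125b against sh-ctrl. Partners called were 0 to 8 for the libraries labelled Arid3a against LUC without single libraries and 2 with DESeq2; for shArid3a against sh-ctrl 0 to 1, and 5 with no filter or DESeq2; for miR-125b against sh-ctrl 2 to 8, and 9 with the replicate block; and between miR-125b and shArid3a 0 to 2, with 2 for no filter, DESeq2 or 2 groups alone and 1 for 10 counts in every library or the replicate block. EF-hand genes called were 0 to 6 and 1 with DESeq2, 0 to 1 with 2 for no filter and 4 for DESeq2, 3 to 10 with 5 by library totals and 6 with the replicate block, and 1 to 2 with 2 for no filter and 3 for DESeq2, in the same order. Directions turned for Arid3a in the libraries labelled Arid3a (−0.0188 without their replicate 3), for Anxa1 there (−0.35 with the replicate block, −0.13 and −0.21 without LUC replicates 1 and 2, −1.15 without their replicate 1, 0.45 without LUC replicate 3), for Anxa1 in shArid3a (0.52 without sh-ctrl replicate 1, −0.42 without replicate 3), for Anxa11 in shArid3a (−0.0826 by library totals, −0.0242 without sh-ctrl replicate 3, −0.22 without shArid3a replicate 1, 0.37 at the highest) and for Cacybp between miR-125b and shArid3a (−0.12 without shArid3a replicate 1, −0.0606 without miR-125b replicate 1, 0.29 without shArid3a replicate 3). Depth limits S100a4, S100a6 in sh-ctrl, and S100a8 and S100a9 outside WT.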
